A study of Mus musculus with 9 samples.

Results

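The 5′ leader of mouse Azin1 mRNA was probed with dimethyl sulfate (DMS), nucleotide by nucleotide, along 4 regions that reach from position 39 to position 787 of the transcript. DMS adds a methyl group to the base-pairing face of adenine and cytosine where that face is free. In mutational profiling the methylated bases are read as mutations in the cDNA, so a nucleotide with many mutations is one that was reachable by the reagent. Every value whose transcript name was the RefSeq mRNA of Azin1 was taken, which gave 816 nucleotide readings of 32967 in the table and 4 regions of 161. Of the 816 readings, 388 were adenines or cytosines, the bases that DMS reports, and all 388 could be tested, out of 16178 tested in the whole table.

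AZIN1, the antizyme inhibitor, is a relative of ornithine decarboxylase that has no decarboxylase activity of its own. It binds antizyme, the protein that carries ornithine decarboxylase to destruction, and so frees the enzyme for the synthesis of polyamines such as spermidine. The leader of its mRNA is known for a conserved upstream coding region that starts at a codon other than AUG. That coding region holds a conserved run of codons for proline, proline and tryptophan, and through it high polyamine levels hold down translation of the main reading frame.

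All samples were total RNA of E14TG2a mouse embryonic stem cells, with 3 independent samples in each of 3 groups. Cells depleted of ATP were kept for 10 min in glucose-free medium holding 2-deoxyglucose and sodium azide, each at 10 mM, and both agents stayed in all later media; untreated cells went through the same handling without that incubation and without the agents. Living cells of both groups received DMS at 1.6%, buffered by bicine at 250 mM, and were kept with it at 37 °C over 6 min. The remaining group was RNA refolded in vitro; how it was exposed to DMS is not stated in the labels used here. DMS-free samples were not analysed here, and the mutation background of each nucleotide is therefore unknown.

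The regions are called by the bounds that the authors gave their amplicons, and positions count from 1 at the start of the mRNA. Region 20 to 270 was read from 39 to 254 and held 15 A and 85 C. Region 213 to 463 was read from 229 to 442 with 54 A and 63 C, region 419 to 669 from 444 to 642 with 48 A and 46 C, and region 562 to 812 from 601 to 787 with 39 A and 38 C. Of 351 distinct A and C positions, 37 were read in 2 regions, and position 443 was not read. Regions 213 to 463 and 419 to 669 shared no position read, so the middle of the leader was read only once.

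The sequence itself was read from the deposited table, where T stands for U. A run of codons of the form CCNCCNTGG (proline, proline, tryptophan) lay at positions 259 to 267. The same letters were found on the mRNA strand in 8 of the 161 regions (4.97%) and as the reverse complement in 6 (3.73%). No stop codon preceded the run in its frame within the sequence read, the frame closed at a UGA at position 370, and 1 AUU lay upstream in it, at position 166, which is 68 codons before the stop. The place of the conserved coding region is not annotated in the sources used here, so this frame is described by its letters alone. Capitals mark, in turn, that AUU, the AUG at position 249, the proline and tryptophan codons, and the stop, which are shown because results below fall on or beside them:

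AUU at 166: gcgccgctccATTtctccagttc

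AUG at 249: cccgcagcctATGgcccaggccg

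Pro-Pro-Trp codons at 259: atggcccaggCCGCCTTGGgtatttctgc

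UGA at 370: gcgaactttcTGAccgagtatac

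There were 8 AUG triplets in the sequence read, at 249, 463, 494, 584, 591, 720, 751 and 770. The first 6 opened frames that closed again after 7 to 44 codons. The main start codon is not annotated in the sources used here, so the end of the stretch called leader may be coding. The frames of the AUGs at 751 and 770 met no stop before the end of the sequence read:

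AUG at 751: tacggctgagATGaaaggattta

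AUG at 770: tttattgacgATGcgaactactc

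Values are given in CPM, counts of mutations per 1000000 of a scaled total of the same region and sample. The scaling factor of the Azin1 totals was 0.8867 to 0.9725 in vitro and 0.9932 to 1.08 in the in-cell samples. An equal share of the counts therefore gives a somewhat higher CPM in vitro. CPM values say how the signal is shared out along a region and carry no information on whether a whole region became more or less reactive. Depth over the whole table was 5743965 to 12616275 counts per sample. The Azin1 regions held 9780 to 40097 counts per sample (20 to 270), 14895 to 81585 (213 to 463), 64015 to 135990 (419 to 669) and 45432 to 123702 (562 to 812), so the last 2 regions are measured more finely than the first 2. Counts come from amplified cDNA and are not independent molecules.

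At 1 nucleotide the in vitro replicates of region 213 to 463 came far apart. A323 carried the most signal of any A or C of that region in untreated cells. Its level was 31330, 26613 and 30966 CPM in the 3 untreated samples and 36040, 34699 and 31983 CPM in the ATP-depleted samples. In vitro it was 70853 CPM in replicate 1, from 1289 counts of 20192, while replicates 2 and 3 held 0 counts among 18794 and 42003. A count of 0 allows up to 3 counts, which is 172 CPM in replicate 2 and 73.4 CPM in replicate 3, at least 186-fold and at least 435-fold below the mean of the 6 in-cell samples, 31938 CPM. The 3 in vitro replicates therefore lie on both sides of the in-cell range at this one nucleotide.

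With A323 in the profile, replicate 1 correlated with replicates 2 and 3 at r = 0.499 each over 117 A and C nucleotides, against 0.891 between replicates 2 and 3. These correlations are across nucleotides, which are not independent. Without A323 they were 0.865, 0.880 and 0.889 over 116 nucleotides. The in vitro replicate that stood apart did so through A323 and not along the rest of the region. In the whole table, 5 of 16187 A and C readings, of which A323 is 1, had 0 counts in at least 1 sample where their highest value, of 20000 CPM or more, would have given 100 counts or more.

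**Figure D1:**
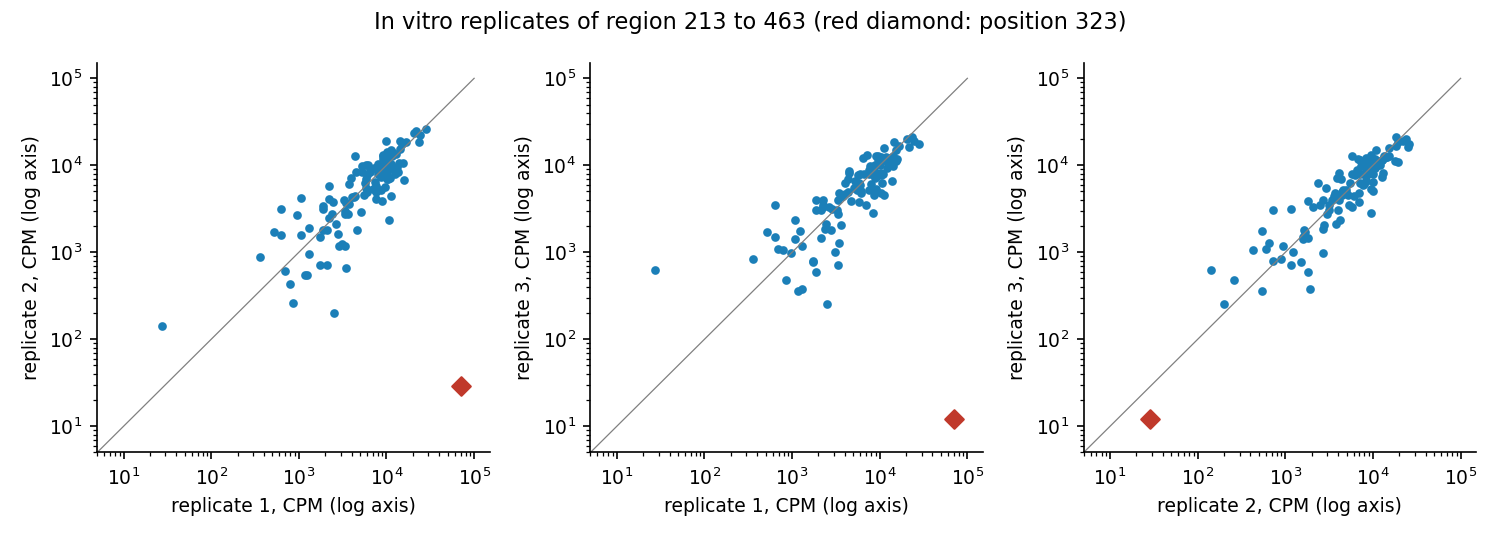
Each point is an A or C of region 213 to 463, with CPM in one in vitro replicate against another on log axes; the grey line marks equal values. Position 323 (red diamond) lies far below the line in both panels with replicate 1 and at the lower left between replicates 2 and 3, which held 0 counts there and are drawn at the value the table gives to a count of 0.

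The limma fit gave A323 a change of -1.84 ± 1.05 (log2, SE) in vitro against untreated with an adjusted p of 0.276. Without in vitro replicate 1 it gave -3.35 with an adjusted p of 9.14e-05, and that size depends on the value given to a count of 0. Because of this nucleotide, results for the in vitro group are given with and without replicate 1. Untreated replicate 1, the sample with the fewest counts in this region (14895), also differed from its group. It correlated at 0.576 and 0.538 with untreated replicates 2 and 3 without A323, against 0.792 between those. Among the nucleotides high in it was C427, with 15040 CPM against 5828 and 5789 in the other untreated samples.

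The first comparison asks what refolding outside the cell changed. A and C readings were called where the adjusted p of limma, over all 16178 tested, was under 0.05. Against untreated cells, 90 of 388 Azin1 readings differed (23.2%), beside 16.3% of the whole table. Signal was higher in vitro at 51 (13.1%, beside 8.08%) and lower at 39 (10.1%, beside 8.18%). The replicates of the 2 groups did not overlap at any of the 90, but these were selected on the same values, so this adds no support of its own. Changes are on the scale log2(CPM + 3197), which understates the change of weak nucleotides. The median size of the change, without regard to sign, was 0.33 for Azin1 and 0.27 over the table, and the signed medians were 0.02 and 0.01.

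Regions differed in how many readings were called, beside 16.3% of the whole table. There were 16 of 100 (16.0%) in region 20 to 270 and 33 of 117 (28.2%) in 213 to 463. There were 30 of 94 (31.9%) in 419 to 669 and 11 of 77 (14.3%) in 562 to 812. The median SE was 0.204, 0.177, 0.141 and 0.135 in the same order, and the part of precision in these counts was not tested. Counted by the frame described above, 7 of 56 readings were called before the AUU (12.5%), all read in region 20 to 270 alone. From the AUU to the codon before the stop 34 of 122 were called (27.9%). Downstream, 47 of 193 were called between that frame and the AUG at 751 (24.4%), and 2 of 17 from that AUG on (11.8%). The bases also differed. Of 156 A readings 24 rose and 6 fell, while of 232 C readings 27 rose and 33 fell. Over all genes 9.96% of A rose and 4.05% fell, and 6.70% of C rose and 11.2% fell.

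Without in vitro replicate 1, 71 readings were called, 38 higher and 33 lower, and 61 of these were among the 90. In region 213 to 463 the count was then 26, with 23 shared. The count moved by more than 1.5 times without any 1 of the untreated samples: it was 59, 48 and 57 without untreated replicates 1, 2 and 3. It was 49 when the ATP-depleted samples were left out of the fit.

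**Figure D2:**
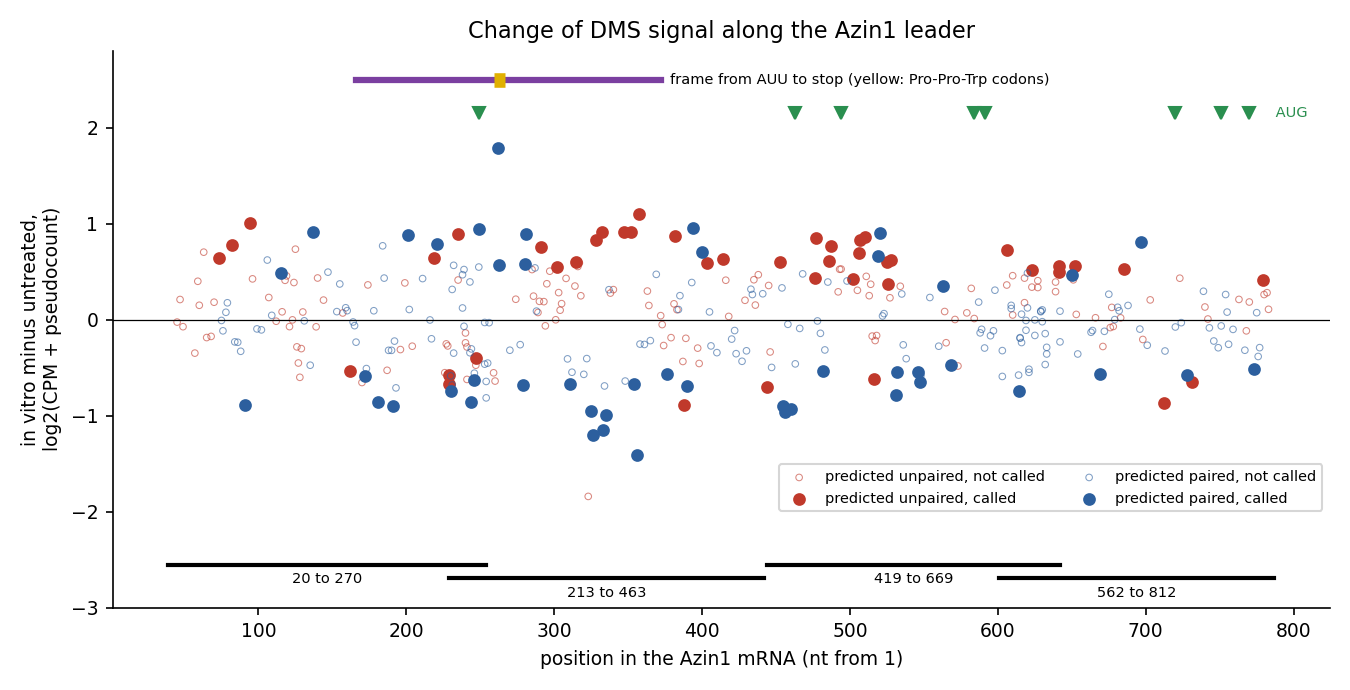
Each point is 1 A or C reading at its position in the Azin1 mRNA, with the in vitro minus untreated change on the log2(CPM + pseudocount) scale; filled points are the 90 called, and colour gives the predicted pairing. Black bars are the stretches read, green triangles the 8 AUGs, and the purple bar the frame from the AUU at 166 to the stop at 370. The highest point is C262 at 1.79, inside the yellow Pro-Pro-Trp codons, and the open point near -1.84 is A323.

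The largest rise of the leader fell in the codons for proline and tryptophan. C262, the first base of the second proline codon, had 23435, 18364 and 20968 CPM in vitro. It had 4089, 2785 and 4474 CPM in untreated cells and 5514, 2599 and 3531 CPM after ATP depletion. All 3 in vitro samples stood above all 6 in-cell samples, and the 2 in-cell groups overlapped.

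The change of C262 was 1.79 ± 0.17 (SE) against untreated cells, with an adjusted p of 0.000817 by limma. It was 1.78 against ATP-depleted cells (adjusted p 0.000874), and 1.72 against untreated cells without in vitro replicate 1 (adjusted p 0.00438). The next base, C263, rose too, from 439, 1913 and 1596 CPM in untreated cells to 3269, 4039 and 3048 CPM in vitro (adjusted p 0.0368), although not without in vitro replicate 1 (adjusted p 0.0686). In the first proline codon C259 and C260 had lower means in vitro and were not called, with changes of -0.55 and -0.64 (adjusted p 0.0765 and 0.0522). The called changes of this codon run lay on its second proline codon.

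The A of the AUG at 249, which lies 10 bases before that run, was read in both of the first regions. In region 20 to 270 it had 37147, 33154 and 21579 CPM in vitro against 17555, 12474 and 12674 CPM in untreated cells, a rise of 0.94 ± 0.19 (SE, limma adjusted p 0.015). In region 213 to 463 it had 9533, 5701 and 12742 CPM in vitro against 4292, 5547 and 5622 CPM in untreated cells, a difference of 0.55 that was not called (adjusted p 0.0992). The replicates did not overlap in either region, and the adjusted p of the first was above 0.05 without untreated replicate 2 or 3 (0.0566 and 0.0538) or with only the 6 samples compared (0.0564). A249 is 5 bases from the last one read in region 20 to 270.

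Of the 9 readings of the A in the 8 AUGs, this was the only one called in vitro against untreated cells. Of all A in the table, 9.96% were called higher and 4.05% lower, so 1 of 9 is near the background and says nothing particular of these triplets. At the AUG at 751, whose frame met no stop, A751 had 5519, 4063 and 5332 CPM in vitro against 3755, 5697 and 6803 CPM in untreated cells, and the groups overlapped. A720 was the most reactive A of an AUG read in untreated cells in region 562 to 812, with 12013, 13888 and 15639 CPM, and changed by -0.08 in vitro (adjusted p 0.683). At the AUU at 166, A166 had 6304, 4094 and 6689 CPM in vitro against 6818, 5884 and 9063 CPM in untreated cells (adjusted p 0.346). At the UGA, A372 differed by 0.04 (adjusted p 0.841). A p above the threshold does not show that the groups were alike at these triplets.

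Between A323 and C358, nucleotides that rose in vitro were interspersed with nucleotides that fell. This stretch was singled out after its values were seen, so no test is attached to it as a whole. It lies in the second part of the frame, ahead of the stop, and held 18 A and C nucleotides. Of these, 5 rose and 6 fell in vitro against untreated cells, and the rest were not called. Its first 30 bases are shown with capitals on the nucleotides that rose, then on those that fell, then on all A and C that a computed fold leaves unpaired:

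rose in vitro, 323 to 352: agacgCtttAcccgactctttgggCcgttA

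fell in vitro, 323 to 352: agACgctttaCcCgactctttgggccgtta

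predicted unpaired, 323 to 352: AgacgCtttAcccgaCtCtttgggCcgttA

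With all samples in the fit, all 5 that rose were predicted unpaired and all 6 that fell were predicted paired. The split was not clean without in vitro replicate 1, when A323 was called lower as well, as given above. A323 was predicted unpaired, with a probability of 0.997. Of the 7 A and C shown as predicted unpaired, 4 rose, and the rest, A323 among them, were not called with all samples in the fit. The fold was computed by RNAfold from the sequence of the 4 regions joined, with no reactivity in it, and a nucleotide was taken as unpaired where its probability was above 0.5.

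Among the rises, A332 had 20468, 23578 and 19915 CPM in vitro against 9024, 10378 and 9940 CPM in untreated cells, a change of 0.92 ± 0.13 (SE, limma adjusted p 0.00344). C347 had 24369, 22088 and 18862 CPM against 11863, 8561 and 9940 CPM. A357 had 21731, 25067 and 16072 CPM against 10511, 6891 and 6685 CPM, the second largest rise of the leader at 1.10. Each of these stood above every untreated and every ATP-depleted sample.

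Directly beside A357 lay the largest fall that was called. C356 had 797, 430 and 1065 CPM in vitro against 11119, 7069 and 4641 CPM in untreated cells and 3681, 4094 and 4648 CPM after ATP depletion. The change against untreated cells was -1.41 ± 0.20 (SE, limma adjusted p 0.00386), and the untreated samples spread more than the other groups. C326 followed, with 1291, 945 and 1187 CPM in vitro against 8213, 7320 and 5038 CPM in untreated cells. C333 fell by 1.15, C335 by 0.99 and A325 by 0.95 on the same scale. Adjacent bases, 332 with 333 and 356 with 357, thus moved in opposite directions.

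Without in vitro replicate 1 the limma adjusted p of these 8 nucleotides ran from 0.00532 for C326 to 0.0179 for A357, so all stayed called. C328 (0.0474) stayed called too, and A352 (0.0687) did not. C354, the other nucleotide of the stretch that fell, is not among those given here. The call of A325 depended on single samples: its adjusted p was 0.0689 without untreated replicate 1, 0.0682 without untreated replicate 3, and 0.0575 and 0.0533 without in vitro replicates 2 and 3.

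**Figure D3:**
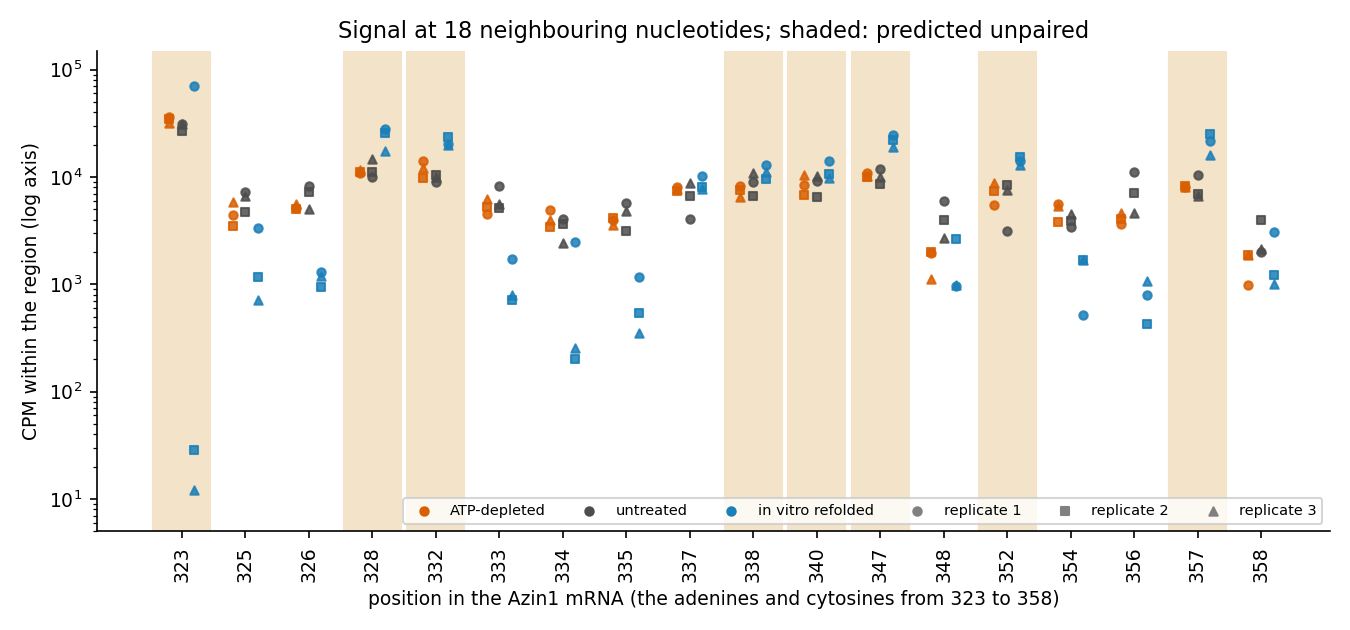
CPM on a log axis in each of the 9 samples at the 18 A and C nucleotides from 323 to 358; colours are the groups and symbols the replicates, and shaded columns are predicted unpaired. In vitro values lie above the in-cell values in the shaded columns 328, 332, 347, 352 and 357 and below them at 325, 326, 333, 335, 354 and 356; position 323 splits the in vitro replicates.

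The rest of the named changes lay upstream and downstream of the frame. C94 and C137 rose in region 20 to 270, C94 from 9328, 8155 and 9906 CPM in untreated cells to 20818, 29464 and 16192 CPM in vitro, a change of 1.01. C137 rose by 0.92 and was no longer called without untreated replicate 2 (adjusted p 0.0501) or 3 (0.0588). A394, downstream of the stop, rose from 8618, 5089 and 8730 CPM to 16676, 18478 and 16708 CPM, above every in-cell sample.

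Just before the AUG at 463, 3 cytosines fell in vitro, C455, C456 and C460, marked by capitals in the bases from 450 to 475:

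fell in vitro, 450 to 475: gggaaCCtagCtgatgatagggggtt

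C455 had 2447, 2439 and 4297 CPM in vitro, 5716, 4943 and 5075 CPM after ATP depletion and 7794, 8499 and 8908 CPM in untreated cells. At C456 and C460, too, every ATP-depleted sample lay between every in vitro and every untreated sample. The changes in vitro against untreated cells were -0.90 ± 0.13, -0.96 ± 0.11 and -0.93 ± 0.13 (SE), with limma adjusted p of 0.00393, 0.00162 and 0.00388. Against ATP-depleted cells C456 and C460 were called (adjusted p 0.0237 and 0.0478) and C455 was not (0.0536). The A of the AUG itself, A463, was not called in vitro against untreated cells (adjusted p 0.0754). C455, C456 and C460 lie near the first base read in region 419 to 669, at 444, and were read in no other region.

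Refolded RNA was also set against ATP-depleted cells, a comparison that shares its in vitro samples with the one above. Of 388 readings 74 differed (19.1%), beside 14.9% of the whole table. Signal was higher in vitro at 46 (11.9%, beside 8.31%) and lower at 28 (7.22%, beside 6.56%). C262, A394, C137 and A357 had the largest rises, of 1.78, 1.13, 1.12 and 1.08. C333, C326, C388 and C88 had the largest falls, by 1.00, 0.96, 0.95 and 0.93.

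By region, 16 of 100, 26 of 117, 21 of 94 and 11 of 77 were called in the order of the leader, beside 14.9% of the whole table. In region 419 to 669, 17 rose and 4 fell. Of the A readings 21 rose and 1 fell, a lean that the whole table shared, where 10.1% of A were called higher and 3.26% lower. Without in vitro replicate 1 the count was 63 (39 higher, 24 lower), and 56 of these were among the 74. It was 28 without ATP-depleted replicate 2 and 35 without ATP-depleted replicate 3, so each of these samples moved it by more than 1.5 times.

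C388, downstream of the stop, had 632, 3123 and 3464 CPM in vitro against 8358, 6419 and 7177 CPM after ATP depletion. Its call was lost without any 1 of the ATP-depleted samples, with adjusted p of 0.0932, 0.0745 and 0.0830, and without untreated replicate 2 (0.0504). C88, in region 20 to 270, had 395, 634 and 393 CPM in vitro, 5407, 3003 and 3154 CPM after ATP depletion and 1912, 1371 and 999 CPM in untreated cells. C88 was a weak nucleotide, at 5 to 178 counts per sample.

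ATP depletion itself was compared with untreated cells to see what the loss of ATP changed inside the cell. No Azin1 reading was called, 0 of 388, and none in the whole table was (0%) by limma. At an unadjusted p under 0.05 there were 23 of 388 (5.93%), beside 3.93% of the table in either direction. Of the 23, 21 were lower after depletion and 2 higher. The table was not split by direction at this threshold, so this lean cannot be called particular to Azin1. The fitted differences ran from -0.63 to 0.60, with a median SE of 0.16 and a median of -0.04 (table: -0.03).

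The 3 smallest p-values belonged to C456, C88 and C531. C456 had 1782, 2880 and 2588 CPM after depletion and 4285, 5310 and 4335 CPM in untreated cells, a difference of -0.49 ± 0.11 (SE, limma adjusted p 1). As given above, C456 lies near the first base read in its region. C88 was 0.60 higher after depletion. C531 had 2033, 2828 and 3014 CPM after depletion and 6241, 3841 and 5258 CPM in untreated cells, a difference of -0.51. In all 3 the replicates of the groups did not overlap, and none passed the adjustment over the table.

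The 5 strongest A or C of each region in untreated cells were followed across the groups. In region 20 to 270 they were C253, C82, A249, C199 and A244. C253, A249 and A244 were also read in region 213 to 463 and were weaker there. Their untreated means were 18204, 14235 and 13452 CPM in region 20 to 270. In region 213 to 463 they were 3488, 5154 and 9292 CPM. CPM are shares within a region, and these bases lie near the end of the stretch read in region 20 to 270. C82, in the first part of the leader, rose from 19216, 15188 and 16357 CPM in untreated cells to 25842, 39497 and 29872 CPM in vitro (limma adjusted p 0.0165). C253, in the codon after the AUG at 249, had 15235, 11128 and 10744 CPM in vitro against 17980, 15603 and 21027 CPM and was not called (adjusted p 0.114).

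After A323, region 213 to 463 was led by C365, C232, C328 and C290. C328 rose from 9903, 11190 and 14737 CPM to 28160, 25869 and 17467 CPM in vitro (limma adjusted p 0.0179), and the other 3 were not called. In region 419 to 669 A639, C641, A627, A513 and A453 led. A453, near the first base read in that region, rose from 13755, 11107 and 13059 CPM to 23051, 21412 and 18286 CPM (adjusted p 0.0113).

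In region 562 to 812, whose end lies past the AUG at 751, A653, A723, A739, A779 and C641 led. A653, the strongest, had 21949, 23124 and 15649 CPM in untreated cells, 18944, 18366 and 15829 CPM after depletion and 23077, 21782 and 18120 CPM in vitro, and the 3 groups overlapped. A779 was called in vitro against untreated cells at 0.41 (limma adjusted p 0.0368) but not without in vitro replicate 1 (0.0712).

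Overlaps between regions give a second measurement of the same nucleotides in the same RNA. Most positions called in vitro against untreated cells in an overlap were called in 1 of their regions alone: 6 between regions 20 to 270 and 213 to 463, and 3 between regions 419 to 669 and 562 to 812. In each overlap 1 position, C229 and C641, was called in both regions. C641 rose in vitro in both. It had 18156, 24923 and 21773 CPM in vitro against 12713, 12817 and 15351 CPM in untreated cells in region 419 to 669, and 24215, 20222 and 18628 CPM against 14262, 14542 and 12905 CPM in region 562 to 812. The changes were 0.56 and 0.50 (limma adjusted p 0.0224 and 0.0219). The call in region 419 to 669, where C641 is beside the last base read, was lost in 4 of 17 other settings.

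C229, the first A or C of region 213 to 463, fell in both of its regions, by 0.58 and 0.67 (limma adjusted p 0.0492 and 0.00765). The first of these lost its call in 14 of 18 other settings. Over all shared positions, the in vitro change against untreated cells had the same sign in both regions at 12 of 16 positions between regions 20 to 270 and 213 to 463 (r = 0.584 across nucleotides) and at 18 of 21 between regions 419 to 669 and 562 to 812 (r = 0.827). The deeper pair of regions had the higher correlation, and the part of depth in this was not tested.

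The Gini coefficient describes how unevenly signal is shared among the A and C of a region; it is 0 when all are equal and grows as the signal gathers on fewer. It was higher in vitro in all 4 regions. In region 20 to 270 it was 0.411, 0.440 and 0.384 in vitro, 0.322, 0.254 and 0.269 after ATP depletion and 0.319, 0.276 and 0.269 in untreated cells. In region 213 to 463 it was 0.444, 0.431 and 0.404 in vitro against 0.327, 0.224 and 0.289 in untreated cells. Every in vitro sample was above every in-cell sample in each region.

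The differences in vitro minus untreated were 0.124 ± 0.0229, 0.146 ± 0.0258, 0.121 ± 0.0167 and 0.0845 ± 0.0160 (SE) along the leader, with limma adjusted p of 0.00145, 0.00122, 0.00033 and 0.00168 over 161 regions. A rise of this kind was the rule in the table, where 80.1% of regions were called higher in vitro against untreated cells and 78.9% against ATP-depleted cells. The median over all regions was 0.0923, and the Azin1 regions ranked 36, 20, 41 and 89 of 161. Against ATP-depleted cells all 4 were called higher as well, by 0.130, 0.150, 0.129 and 0.0812.

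Without in vitro replicate 1 the differences from untreated cells were 0.124, 0.137, 0.120 and 0.0927 and all stayed called. Without A323 the difference of region 213 to 463 was 0.150 (limma adjusted p 0.000949). With A alone, of which region 20 to 270 holds 15, that region was not called (0.0791, adjusted p 0.133 against untreated cells, and 0.0921, adjusted p 0.0833 against ATP-depleted cells). ATP-depleted and untreated cells differed by -0.00613, -0.00392, -0.00760 and 0.00327, with an adjusted p of 0.984 in each region.

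**Figure D4:**
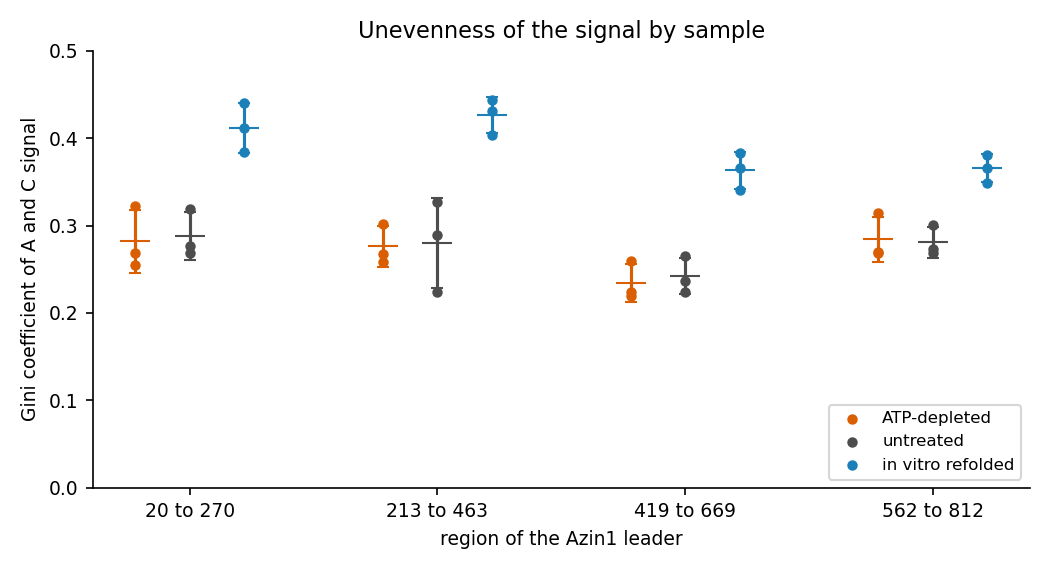
Points are the Gini coefficient of A and C signal in each sample, by region of the Azin1 leader; the horizontal mark is the mean of 3 samples and the bar 1 SD. In all 4 regions the in vitro samples lie above both in-cell groups, whose points overlap.

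The regions of other genes with the change nearest to that of the deepest Azin1 region, 419 to 669 (0.121), were Esco1 104 to 354 (0.121), Mbd5 793 to 1043 (0.120) and Ube4b 207 to 457 (0.120). Of 20 genes of polyamine synthesis, breakdown, transport and control, including ornithine decarboxylase, its antizymes and Azin1, only Azin1 had a region in the table, so no other gene of the pathway could be described.

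Calls were then set beside the fold computed from the sequence, which left 179 readings unpaired and 209 paired. Of the unpaired readings 35 were higher in vitro than in untreated cells (19.6%) and 9 lower (5.03%). Of the paired readings 16 were higher (7.66%) and 30 lower (14.4%). Without in vitro replicate 1 the counts were 27 and 9 among unpaired, and 11 and 24 among paired readings. Against ATP-depleted cells they were 30 and 8, and 16 and 20. The lean against untreated cells lay mostly in regions 213 to 463 and 419 to 669. There 11 of 58 and 15 of 42 unpaired readings rose, against 6 of 59 and 3 of 52 paired. Falls there were 3 and 2 among unpaired and 13 and 10 among paired readings. In region 20 to 270, 5 of 48 unpaired and 5 of 52 paired readings rose, and 2 and 4 fell. In region 562 to 812, 4 of 31 and 2 of 46 rose, and 2 and 3 fell. Over the whole table, without regard to pairing, 8.08% were higher and 8.18% lower in vitro than in untreated cells. Only Azin1 was folded, so the table gives no share by pairing to set beside these counts. The counts were not split by base, and over all genes A leaned to rise and C to fall. No test is attached to these counts, because readings of a region share their samples.

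The exceptions include the largest rise. C262 was predicted paired, with an unpaired probability of 0.005, and so were C137 (0.008), A249 (0.059) and A394 (0.09), which makes 4 of the 8 largest rises. All 8 of the largest falls against untreated cells were predicted paired, with probabilities of 0.001 to 0.03. C388, which fell against ATP-depleted cells, was predicted unpaired (0.808).

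How well the signal of a sample separates predicted unpaired from paired nucleotides was measured by the area under the ROC curve, where 0.5 is no separation and 1 is complete. It was 0.710, 0.688 and 0.722 in vitro, 0.684, 0.690 and 0.679 after ATP depletion and 0.608, 0.657 and 0.651 in untreated cells. All in vitro and all ATP-depleted samples were above all untreated samples. The differences were 0.0685 in vitro against untreated and 0.0460 for ATP-depleted against untreated cells, each with p = 0.1 by an exact two-sided permutation test, the smallest that 3 samples against 3 allow (adjusted 0.15), so neither could pass 0.05. In vitro and ATP-depleted samples overlapped and differed by 0.0225 (exact permutation p = 0.2, adjusted 0.2), and this difference was -0.0190 when each region was folded alone.

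By region the in vitro mean was 0.593 ± 0.0493 (SD, n = 3) in region 20 to 270, 0.685 ± 0.0173 in 213 to 463, 0.772 ± 0.0218 in 419 to 669 and 0.778 ± 0.0195 in 562 to 812. Untreated means were 0.601 ± 0.0176, 0.594 ± 0.0796, 0.622 ± 0.0341 and 0.737 ± 0.0419. The first region, the richest in G and C (61.6%) and the shallowest, showed the least separation in vitro. In region 213 to 463 the untreated spread came with replicate 1, at 0.502 against 0.635 and 0.645.

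**Figure D5:**
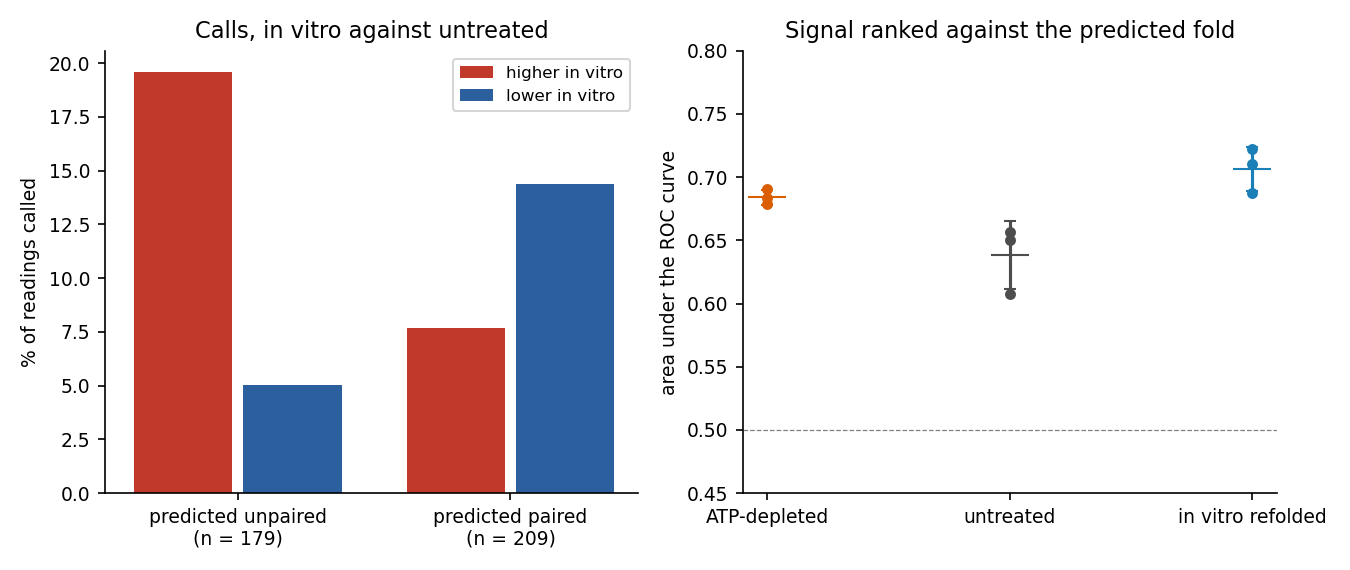
Left, the percentage of the 179 predicted unpaired and 209 predicted paired A and C readings called higher (red) or lower (blue) in vitro against untreated cells. Right, the area under the ROC curve of each sample (points) with the mean of 3 samples and 1 SD, on an axis from 0.45 to 0.80; the dashed line at 0.5 is no separation, and the untreated samples lie lowest.

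Finally, the share of all counts on each base and in each of 3 equal parts of a region was compared, 28 values in each comparison of groups. The smallest adjusted p of the exact permutation tests was 0.28 in vitro against untreated cells, 0.311 in vitro against ATP-depleted cells and 0.7 for ATP-depleted against untreated cells, so none was called at this number of samples. The largest difference in a base was that of A in region 213 to 463. A, at 25.2% of the positions, held 42.6% ± 1.78 (SD, n = 3) of the counts in vitro, 38.0% ± 1.61 after ATP depletion and 37.7% ± 1.65 in untreated cells. All 3 in vitro samples were above all in-cell samples, also without A323, when the shares were 41.4% ± 0.497 in vitro and 35.7% ± 1.61 in untreated cells. The 2 runs of 5 A in this region, from 301 and from 314, held mean levels between 1454 and 8475 CPM in untreated cells and between 2529 and 10471 CPM in vitro. In each run 1 A was called, and 2 of 10 is near the share over all A tested, of which 9.96% were called higher and 4.05% lower.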

How the data were processed

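DMS mutational profiling of amplified cDNA was used on 9 samples, 3 in each of 3 groups taken from the sample titles. The authors' deposited table holds log2 values, 1 per nucleotide, region and sample. Per the submitters' processing notes the tools included bcl2fastq, Bowtie2 and limma, without versions; no source used here names the mutation counter or the reference build. Raised from log2, the values gave back whole counts after a prior of 0.5, per 1000000 of a scaled library, in 1449 of 1449 libraries (tolerance 0.0001). Coverage is unknown, and rates could not be had. Scaling is within a region, so a rise of 1 nucleotide lowers the others' share.

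Values were turned to CPM and tested as log2(CPM + 3196.78), where the pseudocount is 0.5 of the A and C median over all samples, 6393.56, with limma 3.58.1 in R 4.3.3 on all 9 samples, 1 mean per group. The two-sided p was adjusted by Benjamini-Hochberg over the 16178 A and C of the whole table, with a threshold of 0.05. The script was tested on simulated data. Gini coefficients over A and C were tested in the same way over 161 regions. RNAfold 2.7.2 folded the 4 regions joined (749 nt, with position 443 as N). Gene names came from a RefSeq table, which matched 68 of 69 transcripts.

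Nucleotides were named by rule: the 8 largest rises and falls against untreated cells and the 4 largest against ATP-depleted cells, among calls whose replicates did not overlap; the 3 smallest p after ATP depletion; the 5 most reactive A or C per region in untreated cells; those called in 2 regions; and those in AUGs, the stop and the Pro-Pro-Trp codons. A323, C427, the stretch from 323 to 358 and the strongest U and G were singled out after their values were seen. The members and lists were chosen with earlier results of these data known. The replicate numbers were not taken to pair the samples. Over 9 pairs of samples with the same number, the correlations of deviations from the group means ran from -0.018 to 0.100. Over 18 pairs with different numbers they ran from -0.054 to 0.015, so a weak effect shared by samples of the same number is not excluded. Alternatives were other pseudocounts, scalings, filters, fit options, a replicate block, other folds, and each sample left out. The profile without A323 was added after seeing the data.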

Additional observations from a re-analysis of the deposited data

Results flagged for a closer look

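Counts were also present on U and G, bases that the comparisons above do not use. In region 562 to 812, U held 29.02% ± 2.408 (SD, n = 3) of the counts in untreated cells, at 33.7% of the positions. C held 27.03% ± 1.153 there, at 20.3% of the positions. In the regions before it, in the order of the leader, untreated means were 26.35%, 17.72% and 26.53% for U. For C they were 56.72%, 38.71% and 27.63%. How much of the signal on U came from DMS was not tested. The strongest U of the leader was U734 in region 562 to 812, with a mean of 11741 CPM over 9 samples. It was 15774 ± 2564 CPM (SD, n = 3) in vitro, 9532 ± 1448 CPM in untreated cells and 9919 ± 2770 CPM after ATP depletion. The strongest G was G706 in the same region, with a mean of 5593 CPM over 9 samples and 4343 to 6678 CPM in single samples. Both lie above what a count of 0 allows, and no sample without DMS was analysed here to set them against.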

How the results depend on the processing

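No Azin1 reading was called between ATP-depleted and untreated cells in any of the 18 alternatives. In vitro against untreated cells, the count of 90 became 49 with only the 6 samples compared, and 48 to 82 with 1 sample left out. In vitro against ATP-depleted cells, the count of 74 became 28 to 76 with 1 sample left out. The replicate block, added although the numbers were not taken to pair the samples, gave 79 and 65 calls, and 0 after ATP depletion. The Gini differences in vitro kept their sign in all alternatives. They lost their call only for region 20 to 270 with A alone (0.0791 against untreated cells and 0.0921 against ATP-depleted cells). The ROC area kept its order in vitro against untreated cells (0.0305 to 0.103) and for ATP-depleted against untreated cells (0.0306 to 0.0585). In vitro against ATP-depleted cells it turned to -0.0190 with each region folded alone; the cause was not tested. No named nucleotide turned its direction where called. Depth limits regions 20 to 270 and 213 to 463 most, whose shallowest samples held 9780 and 14895 counts. With 3 samples a group, permutation tests could not reach 0.05.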
